A study of Mus musculus with 4 samples.

Results

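Genes of the gastric mucosa were followed in RNA from small-intestinal crypts, a tissue in which a stomach programme is not the main one. The 10 genes were taken by symbol from a given list of gastric surface, neck and gland genes: Gkn1, Gkn2, Gkn3, Tff1, Tff2, Muc5ac, Muc6, Ctse, Pgc and Atp4a. All 10 were found in both of the study's tables, among 25522 genes in the table without tetracycline and 26085 in the table with it. The list was selected on earlier readings of the fasting changes in these tables, so the values of the genes are a description and support nothing on their own.

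The crypts came from male C57BL/6J mice aged 9 weeks, and were shaken off in a buffer with EDTA and dissociated with trypsin to single cells. The 4 groups were mice fed or fasted for 24 hours, each without and with 21 days of tetracycline, an antibiotic, and total RNA was sequenced. The study asked how a depletion by tetracycline of what its labels abbreviate as AKK alters expression in the fed and fasted states. The labels list 1 sample in each group, while each deposited table averages 4 libraries, 2 on either side of the comparison, and nothing states whether these came from separate animals.

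Counts of single libraries were recovered from the deposited means (see the processing). They are given as normalized counts, which are counts divided by a library's size factor. Library 1 of a side has the larger size factor, and no library can be tied to a labelled sample. Which side of a fold change is fasted is stated in neither table. The words in the tables' names put fasted before fed, the changes were read in that order, and every direction and every assignment of a library to fed or fasted depends on that reading. The size factors spanned 1.17-fold without and 1.75-fold with tetracycline. Libraries did not behave alike within a side: fasted library 2 without tetracycline stood far above fasted library 1 in Gkn1, Gkn2, Tff1 and Muc5ac. The fasting changes, their differences and the fasted levels of these 4 genes are given with and without it.

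The preparations carried the identity genes of intestinal epithelium in both states. Vil1, which encodes the microvillus protein villin, had means of 126795 and 122164 normalized counts in the authors' deposited tables without and with the antibiotic. Cdx2, a transcription factor of intestinal identity, had means of 13114 and 10950 in the same authors' deposited tables. In bulk RNA, fewer cells of a type and less RNA per cell cannot be told apart.

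The stomach is lined by surface mucous cells, also called pit cells, which secrete a protective gel. Below them lie mucous neck cells and, deeper in the glands, acid-secreting parietal cells and enzyme-secreting chief cells. Several of these genes are also used outside the stomach: Tff2 and Muc6 are products of Brunner glands in the duodenum, and Gkn3 is listed among genes enriched in Lgr5+ cells at the crypt base. Of the pit cell genes, Gkn1 and Gkn2 encode gastrokines, small secreted proteins, and Tff1 encodes a trefoil peptide that pairs with the product of Gkn2. Muc5ac encodes the gel-forming mucin of the gastric surface, and Ctse encodes the aspartic protease cathepsin E. Of the neck and gland genes, Pgc encodes pepsinogen C of chief cells and Atp4a the catalytic subunit of the parietal cell proton pump.

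The 3 gastrokine genes form 1 cluster in build GRCm38 (annotation of GENCODE M21): Gkn1 lies at chr6:87345650-87350942 on the minus strand, Gkn2 at chr6:87373357-87379497 on the plus strand and Gkn3 at chr6:87383256-87388935 on the minus strand. They are shown because these neighbours had unlike profiles: Gkn1 and Gkn2 ranged from 0 to 1977 and from 0 to 3089 normalized counts over the 8 libraries, and Gkn3 only from 349 to 1171. The sequences are RefSeq promoter bases (GRCm38.p6), from 250 to 31 bases before the gene start, read 5′ to 3′ on the gene's strand. They span chr6:87350946-87351165 for Gkn1, chr6:87373115-87373334 for Gkn2 and chr6:87388966-87389185 for Gkn3. Capitals mark GATAA or its reverse complement TTATC, the core letters of a GATA factor motif.
Gkn1: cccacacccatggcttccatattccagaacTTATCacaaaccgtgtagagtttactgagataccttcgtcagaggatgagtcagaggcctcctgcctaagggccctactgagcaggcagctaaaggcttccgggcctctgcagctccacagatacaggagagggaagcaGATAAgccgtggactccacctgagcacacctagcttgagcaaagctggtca
Gkn2: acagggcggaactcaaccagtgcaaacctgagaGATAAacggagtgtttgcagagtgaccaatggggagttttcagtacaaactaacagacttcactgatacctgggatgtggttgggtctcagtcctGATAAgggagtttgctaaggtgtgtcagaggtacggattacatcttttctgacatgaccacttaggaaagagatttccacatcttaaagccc
Gkn3: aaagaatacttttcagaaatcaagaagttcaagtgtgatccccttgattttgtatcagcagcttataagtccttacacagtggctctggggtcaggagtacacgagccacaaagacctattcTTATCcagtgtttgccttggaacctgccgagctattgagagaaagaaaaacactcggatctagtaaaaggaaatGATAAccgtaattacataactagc
GATAA was searched on both strands, and each of the 3 windows held it 2 times, Gkn1 and Gkn2 and the less variable Gkn3 alike. Of the other genes with an entry, Muc6 held it 2 times and Pgc and Atp4a 0 times. Among 32851 promoter windows of the same length, 20.6% held GATAA and 3.62% held it at least 2 times. TATAAA, present in 9.95% of all windows on either strand, was in none of the 6 windows. ACAAAG, the core of a TCF motif and present on either strand in 14.8% of all windows, was found 1 time each in Gkn3 and Pgc and in none of Gkn1, Gkn2, Muc6 and Atp4a. A match is a description of the letters and not a binding site.

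The other genes lie in 2 further clusters and 3 single places of the same build. Tff1 is at chr17:31161395-31165277 and Tff2 at chr17:31141049-31144282, both on the minus strand. Muc6 is at chr7:141633456-141655319 on the minus strand and Muc5ac at chr7:141788972-141819231 on the plus strand. Ctse is at chr1:131638306-131675505, Pgc at chr17:47726842-47734482 and Atp4a at chr7:30712209-30725534, all on the plus strand. All 10 are protein-coding genes. The identifier of Muc6 differs between the tables and the annotation, and that gene was matched by its symbol. The library kit does not keep the strand, so reads of a gene and of an antisense transcript over it cannot be told apart.

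Without tetracycline, the pit cell genes had no common difference between fed and fasted crypts, and the libraries of a side lay far apart. Gkn1 had 0.917 and 139 normalized counts in fasted libraries 1 and 2, and 16.9 and 186 in fed libraries 1 and 2. Gkn2 had 0 and 239 in the fasted libraries, and 26.8 and 260.2 in the fed ones. Tff1 had 0.917 and 169 in the fasted libraries, and 20.8 and 245 in the fed ones. In all 3 genes library 2 of either side was high, library 1 was low, and fed and fasted overlapped. The low fasted library rests on 1, 0 and 1 raw counts of Gkn1, Gkn2 and Tff1.

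Muc5ac followed another order without tetracycline. It had 0.917 and 105 normalized counts in the fasted libraries, and 2.98 and 12.1 in the fed ones. Its highest library was thus fasted library 2, while Gkn1, Gkn2 and Tff1 were highest in fed library 2. Ctse had 249 and 294 in the fasted libraries, and 186 and 423 in the fed ones, so that both fasted values lay between the fed ones.

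With tetracycline, all 5 pit cell genes were higher in both fed libraries than in both fasted ones. Gkn1 had 0 and 24.8 normalized counts in the fasted libraries, and 534 and 1977 in the fed ones. Gkn2 had 0 and 55.0 in the fasted libraries, and 739 and 3089 in the fed ones. Tff1 had 0.823 and 37.1 in the fasted libraries, and 732 and 2470 in the fed ones. The lowest fed library exceeded the highest fasted library in each, and again library 2 was above library 1 on both sides.

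Muc5ac with tetracycline had 1.65 and 16.5 normalized counts in the fasted libraries, and 103 and 1049 in the fed ones. Fed library 2 alone held 91.0% of its fed level. Ctse had 294 and 172 in the fasted libraries, and 805 and 990.1 in the fed ones. It differed from the other 4 in that its fed libraries were close to each other and its fasted libraries well above 0.

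**Figure D1:**
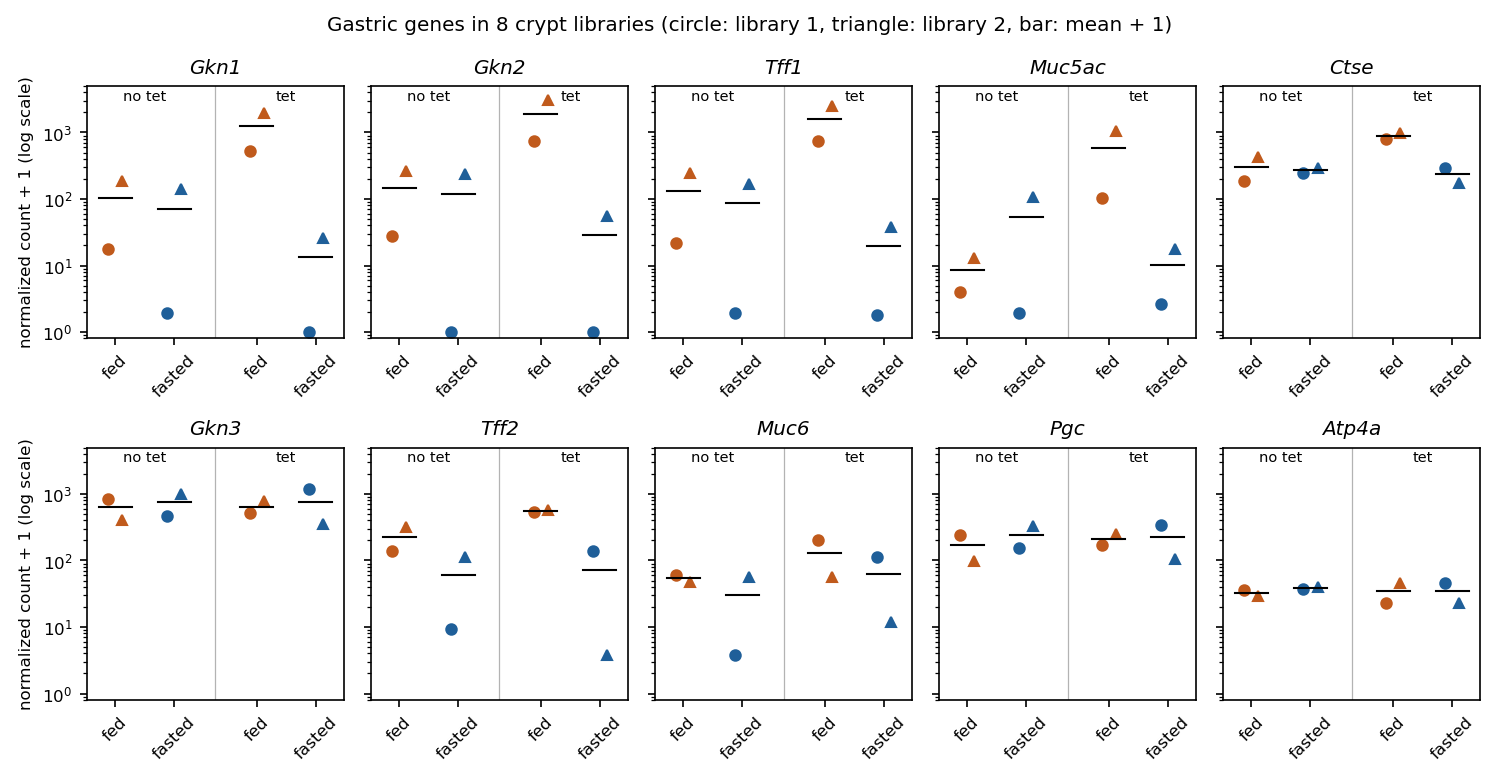
Normalized count plus 1 (log scale) of each of the 10 genes in the 8 recovered libraries; circles are library 1, triangles library 2, and bars the mean of a side plus 1. With tetracycline (right part of each panel), both fed libraries of Gkn1, Gkn2, Tff1, Muc5ac and Ctse lie above both fasted ones, while Gkn3, Pgc and Atp4a overlap.

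The fold changes in the authors' deposited tables summarise these values. Without tetracycline the authors' deposited table gives log2 changes of -0.54 (SE 2.47) for Gkn1, -0.27 (SE 3.42) for Gkn2 and -0.65 (SE 2.52) for Tff1. It gives 2.82 (SE 2.29) for Muc5ac and -0.17 (SE 0.42) for Ctse. Each standard error of Gkn1, Gkn2 and Tff1 was several times the change itself. Leaving out fasted library 2 moved the change of Gkn1 to -5.74, of Gkn2 to -7.17, of Tff1 to -6.13 and of Muc5ac to -2.15. These, and the changes without other libraries given below, are differences of log2 group means with pseudocount 1. Without fasted library 1 the changes of Gkn1, Gkn2 and Tff1 were 0.45, 0.73 and 0.34, and without fed library 2 they were 1.99, 2.11 and 1.98. The sign of the change of these 3 genes without tetracycline thus depended on which library was kept. The same held for Ctse without tetracycline, at -0.64 without fed library 1 and 0.54 without fed library 2.

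With tetracycline, the authors' deposited table gives -6.67 (SE 2.68, adjusted p = 0.586) for Gkn1 and -6.12 (SE 2.94, adjusted p = 0.870) for Gkn2. For Tff1 the authors' deposited table gives -6.41 (SE 1.97, adjusted p = 0.128). The authors' deposited table puts Muc5ac at -6.05 (SE 1.10, adjusted p = 2.96e-05), with a 95% interval from -8.20 to -3.89. It puts Ctse at -1.94 (SE 0.46, adjusted p = 0.00804), again as the authors' deposited table has it. As ratios of group means, the fed level was 101-fold the fasted level for Gkn1, 69.6-fold for Gkn2, 84.3-fold for Tff1, 63.5-fold for Muc5ac and 3.85-fold for Ctse. The 3 largest ratios did not pass an adjusted p of 0.05, and the smallest of the 5 did.

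Both fed libraries lay above both fasted ones, so leaving out any single library could not turn the sign of these 5 changes with tetracycline. The change ranged from -10.3 to -5.32 for Gkn1, from -10.9 to -4.70 for Gkn2 and from -9.78 to -5.20 for Tff1. For Muc5ac it ranged from -7.77 to -3.37, the last without fed library 2. For Ctse it ranged from -2.38 to -1.61. The adjusted p-values belong to all 4 libraries and were not recomputed.

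Of the 10 genes, 0 passed an adjusted p of 0.05 without tetracycline and 2, Muc5ac and Ctse, passed it with tetracycline, by DESeq2's p-values in the authors' deposited tables. Of all genes tested, 2.27% passed without tetracycline (411 of 18100), 1.06% higher and 1.22% lower in fasted crypts. With tetracycline 0.6% passed (108 of 17993), 0.333% higher and 0.267% lower. At an unadjusted p of 0.05 in the authors' deposited tables the counts were 0 and 5 of the 10, where 10.8% and 5.34% of all genes tested passed. Both fed libraries were above both fasted ones in 1 of the 10 without tetracycline (Tff2), where 19.4% of 15119 genes were, and in 6 with tetracycline (Gkn1, Gkn2, Tff1, Muc5ac, Ctse and Tff2), where 16.6% of 15560 genes were. These are the genes with recovered counts and a mean of at least 1. The opposite order held for 1 gene without (Atp4a) and 0 with tetracycline, against 23.4% and 16.2% of those genes. Without overlap in either direction were 2 and 6 of the 10, against 42.8% and 32.8% of them. Since the genes were chosen with these contrasts known, nothing is read from these counts. The median log2 change of the 10 was -0.22 without and -2.46 with tetracycline, beside 0.0067 and -0.018 over all genes tested.

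**Figure D2:**
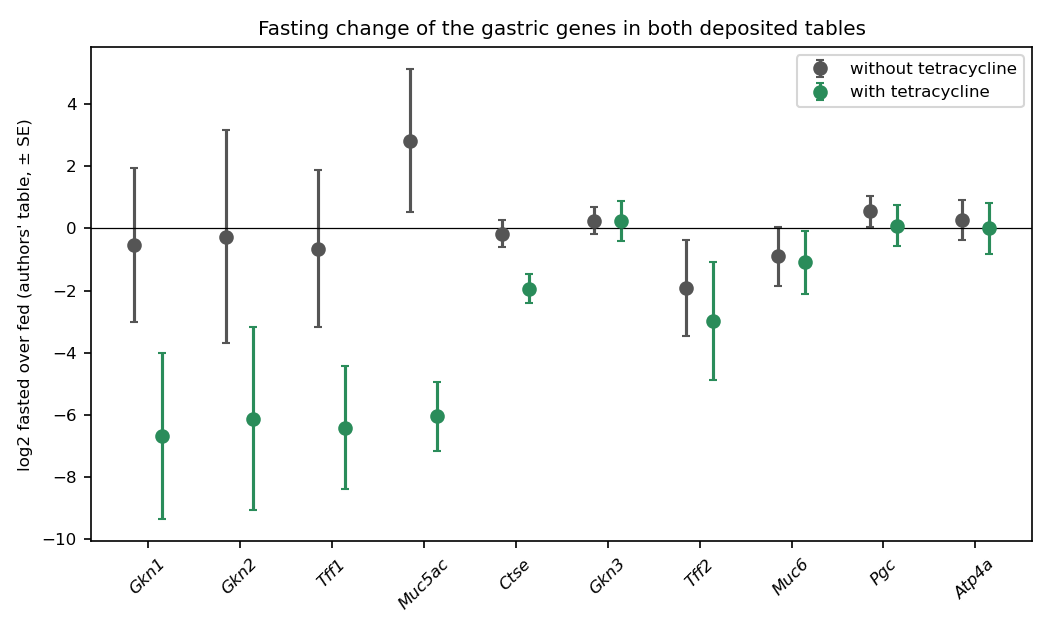
Log2 fold change of fasted over fed for each gene as deposited by the authors, with its standard error as the bar, without (grey) and with tetracycline (green). With tetracycline Gkn1, Gkn2, Tff1 and Muc5ac lie between -6.67 and -6.05 and Gkn3, Pgc and Atp4a near 0; without it the bars of Gkn1, Gkn2 and Tff1 span 0.

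The neck and gland genes fell into a variable pair and a trio that varied less between libraries. Tff2, a trefoil peptide of neck and antral gland cells, had 8.26 and 112 normalized counts in the fasted libraries without tetracycline, and 139.9 and 314.5 in the fed ones. With tetracycline it had 139 and 2.75 in the fasted libraries, and 542 and 577 in the fed ones. Both fed libraries of Tff2 were above both fasted ones in each table. The authors' deposited table gives -1.92 (SE 1.53, adjusted p = 0.757) without tetracycline. With it, the authors' deposited table gives -2.98 (SE 1.89, adjusted p = 0.9999), and neither passed.

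Muc6, the mucin of gland and neck cells, had 2.75 and 54.8 normalized counts in the fasted libraries without tetracycline, and 59.5 and 47.2 in the fed ones. With tetracycline it had 110.3 and 11.01 in the fasted libraries, and 205 and 56.1 in the fed ones. Fed and fasted overlapped in both tables. The low library of Muc6 was the low library of Tff2 each time: fasted library 1 without and fasted library 2 with tetracycline. Its log2 changes of -0.90 (SE 0.95) and -1.10 (SE 1.02) in the authors' deposited tables were near their standard errors. Leaving out 1 library gave values from -3.86 to 0.04 and from -3.45 to 0.11 for Muc6, so its sign was not stable in either table. For Tff2 the same ranges were -4.62 to -1.02 and -7.22 to -2.00.

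Transcripts of B lymphocytes shared the lowest library of each table with this pair, and not the order of all libraries. Cd79a, a component of the B cell receptor, had 129 and 276 normalized counts in the fasted libraries without tetracycline, and 741 and 1491 in the fed ones. With tetracycline Cd79a had 702 and 22.0 in the fasted and 1858 and 366 in the fed libraries. Ms4a1, a surface protein of B cells, took the same order of low libraries, with 88.1 and 142 against 434 and 779 without tetracycline and 339.8 and 24.8 against 1218 and 287 with it. Neither was at 0 in any library, and the lowest library of each table was the one lowest in Tff2 and Muc6. With tetracycline Cd79a and Ms4a1 were higher in fasted library 1 than in fed library 2, as was Muc6, while Tff2 was lower there. In the authors' deposited table without tetracycline Cd79a stands at -2.46 (SE 0.43, adjusted p = 4.21e-06) and Ms4a1 at -2.40 (SE 0.40, adjusted p = 9.53e-07), and neither was called in the other table. The T cell genes Cd3e and Cd8a stand at -0.88 (SE 0.36) and -0.54 (SE 0.36) without tetracycline in the authors' deposited table, and at -1.90 (SE 0.88) and -1.59 (SE 0.82) with it, none of them called. Their sign with tetracycline is that of the pit cell genes. The part of these cells in the values of any of the gastric genes was not tested.

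Gkn3, a gastrokine of neck cells, had 472 and 1015 normalized counts in the fasted libraries without tetracycline, and 843 and 412 in the fed ones. Under tetracycline it had 1171 and 349 in the fasted libraries, and 521 and 772 in the fed ones. Fed and fasted overlapped in both tables, and the log2 changes in the authors' deposited tables were 0.25 (SE 0.44) and 0.23 (SE 0.63). Leaving out 1 library at a time, the change of Gkn3 ranged from -0.41 to 0.85 without and from -0.89 to 0.86 with tetracycline, so its sign turned in both.

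Pgc had 155 and 334 normalized counts in the fasted libraries without tetracycline, and 237 and 98.5 in the fed ones. Under the antibiotic Pgc had 346 and 103 in the fasted libraries, and 172 and 252 in the fed ones. Its high and low libraries were those of Gkn3 in each table. The log2 changes of Pgc in the authors' deposited tables were 0.54 (SE 0.51) and 0.09 (SE 0.67). With 1 library left out at a time, the change of Pgc ranged from -0.11 to 1.31 without tetracycline. Under the antibiotic it ranged from -1.03, without fasted library 1, to 0.70, so its sign turned in both tables.

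Atp4a had 36.7 and 38.7 normalized counts in the fasted libraries without tetracycline, and 34.7 and 28.1 in the fed ones. Under the antibiotic Atp4a had 44.4 and 22.0 in the fasted libraries, and 22.0 and 45.3 in the fed ones. It was present at a low level in every library and varied least of the 10, by 2.06-fold from the lowest to the highest of the 8. Its change ranged from 0.12 to 0.41 without and from -0.59 to 0.57 with tetracycline when 1 library was left out. The corresponding spans were 3.35-fold for Gkn3, 3.52-fold for Pgc and 5.76-fold for Ctse. The other 6 genes had 3 raw counts or fewer in their lowest library, so no span is given for them.

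The ratios of raw counts within a library showed which genes moved together. They do not depend on size factors. Over the 6 libraries with at least 10 counts of Tff1, the ratio of Gkn1 to Tff1 stayed between 0.667 and 0.822, while Tff1 itself went from 21 to 2290 counts. The ratio of Gkn2 to Tff1 lay between 1.01 and 1.48. These 3 genes thus kept nearly fixed proportions in fed and fasted crypts, without and with tetracycline.

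Muc5ac did not keep its proportion to Tff1. Their ratio went from 0.0492 in fed library 2 without tetracycline to 0.624 in fasted library 2 of the same table, a 12.7-fold span. The span was 4.43-fold without the former library and 9.04-fold without the latter. With tetracycline the ratio was 0.141 in fed library 1 and 0.425 in fed library 2. Tff2 and Tff1, neighbours on chromosome 17, had a ratio from 0.0741 to 6.71 over 6 libraries, a 90.6-fold span. The lowest was in fasted library 2 with tetracycline, with its 2 raw counts of Tff2. Over the other 5 libraries the ratio lay between 0.234 and 6.71. This narrower span was 28.7-fold, and 5.49-fold when fed library 1 of the table without tetracycline was left out as well. The ratio of Gkn3 to Gkn1, both in the gastrokine cluster, spanned 128-fold, and 36.1-fold without the same fed library 1.

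Gkn3 and Pgc, which lie on different chromosomes, kept a ratio between 3.02 and 4.18 in all 8 libraries, a 1.38-fold span. The ratio of Tff2 to Muc6 ranged from 1.26 to 10.3 over the 6 libraries with at least 10 counts of Muc6, or an 8.16-fold span that fell to 5.05-fold without fasted library 1 with tetracycline, so this pair was low together without keeping a fixed proportion. Ctse against Gkn1 spanned 22.0-fold over 6 libraries, and 7.30-fold without fed library 2 with tetracycline.

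Other genes with the profile of the pit cell genes were sought over all 8 libraries, by Pearson's r of log2(normalized count + 1) with the mean of Gkn1, Gkn2, Tff1 and Muc5ac. The libraries share a table, its scaling and the fed or fasted state, and r is given as a description. Ranked were genes with a symbol, counts recovered in both tables and a mean of at least 5 in the table with tetracycline. Of 10930 genes ranked, 7 (0.0640%) had an r of at least 0.9. The 10 highest were Gm15803 (0.97), Mucl3 (0.96), Cldn18 (0.93), Gm43289 (0.93), Cfhr2 (0.92), Acsl6 (0.91), D630023F18Rik (0.90), Aloxe3 (0.90), Anxa10 (0.90) and Psapl1 (0.89). Among them Mucl3, Cldn18 and Anxa10 are on the list of other gastric genes. Gm15803 stayed at or below 19.4 normalized counts in every library. Psapl1 passed the filter through its fed libraries with tetracycline, at 18.9 and 71.2, and had 6.03 or less in each library without it.

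Mucl3, a mucin-like gene, had 0 and 139 normalized counts in the fasted libraries without tetracycline, and 14.9 and 80.4 in the fed ones. With tetracycline it had 8.23 and 27.5 in the fasted libraries, and 300.03 and 977 in the fed ones. Like Gkn1, Gkn2, Tff1 and Muc5ac, it was higher in library 2 than in library 1 of each side. Its ratio to Tff1 spanned 2.51-fold, from 0.328 to 0.822.

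**Figure D3:**
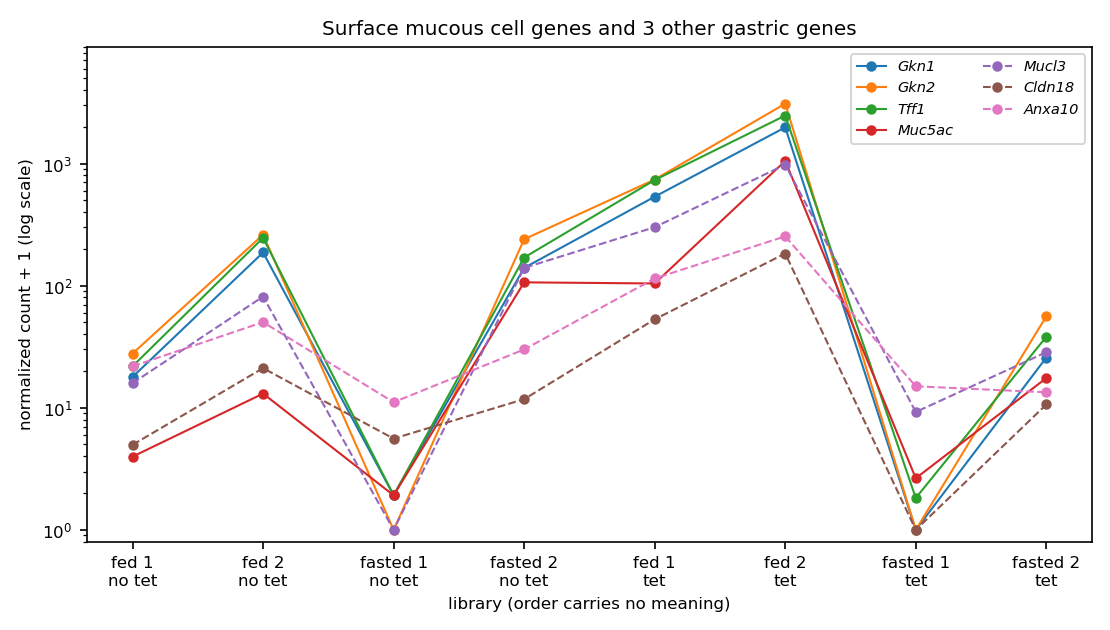
Normalized count plus 1 (log scale) of the pit cell genes Gkn1, Gkn2, Tff1 and Muc5ac (solid) and of Mucl3, Cldn18 and Anxa10 (dashed) in the 8 libraries; lines join the values of 1 gene and the library order carries no meaning. All 7 genes are highest in fed library 2 with tetracycline, and Gkn1, Gkn2 and Tff1 run nearly parallel.

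A list of 21 other genes of gastric epithelium held 16 genes found in both tables, and 5 were found by symbol in neither (Atp4b, Lipf, Sox2, Kcne2 and Chia1). Without tetracycline 11 had an adjusted p in the authors' deposited table, of which 0 passed, 3 were higher and 8 lower, with a median log2 change of -0.35. With tetracycline 12 had one in the authors' deposited table, of which 3 passed, all lower in fasted crypts (0.267% of all genes were), with 3 higher and 9 lower in all and a median of -1.12. In the authors' deposited table the 3 were Mucl3 at -5.20 (SE 0.77, adjusted p = 2.56e-08), Cldn18 at -4.72 (SE 1.19, adjusted p = 0.0184) and Anxa10 at -3.78 (SE 0.69, adjusted p = 2.84e-05). Cldn18 encodes a claudin of tight junctions whose stomach isoform is a marker of gastric epithelium, and Anxa10 an annexin of pit cells.

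Cldn18 had 0 and 9.63 normalized counts in the fasted libraries with tetracycline, and 52.0 and 182 in the fed ones. Anxa10 had 13.99 and 12.4 in the fasted libraries with tetracycline, and 113 and 252 in the fed ones. Both genes had fed libraries well above the fasted ones. Gast, which encodes gastrin of antral G cells, had 0 and 0 against 18.1 and 5.39, and Aqp5, a water channel, had 0 and 0 against 8.66 and 7.55, and neither was given an adjusted p by the authors. Cblif, which encodes the gastric intrinsic factor of chief cells, had no such order: it had 59.2 and 0 in the fasted libraries with tetracycline and 5.51 and 14.02 in the fed ones. Pga5, a pepsinogen, had 0.823 and 0 in the fasted and 3.15 and 2.16 in the fed libraries with tetracycline, which is too few counts to give it an order.

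The profile of Gkn3 and Pgc was set beside that of crypt base genes after their values had been seen. Over 8 libraries, r with the mean of Gkn3 and Pgc was 0.86 for Ascl2 and 0.80 for Lgr5, both markers of crypt base stem cells, while 83 of 10932 genes (0.759%) reached 0.9. Lgr5 had 1003 and 1168 normalized counts in the fasted libraries without tetracycline, and 665 and 375 in the fed ones. With tetracycline it had 1515 and 399 in the fasted libraries, and 391 and 722 in the fed ones. With tetracycline the highest library of Lgr5 was the highest of Gkn3 and Pgc. The genes most like the pair were Kiz (0.99), Abcc1 (0.98) and Cfap418 (0.98). Against the pit cell genes, r was -0.48 for Lgr5 and -0.27 for Ascl2. Olfm4, also a crypt base stem cell marker, has a mean over 1000, so its counts were not recovered and it has no r. The authors' deposited log2 change of Olfm4 was -0.46 (SE 0.31) without the antibiotic and -0.51 (SE 0.70) under it. Lgr5 stood at 1.06 (SE 0.34) and 0.78 (SE 0.68), and Ascl2 at 0.56 (SE 0.32) and 0.45 (SE 0.69). Olfm4 thus had the opposite sign to both, and none of these changes was called.

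**Figure D4:**
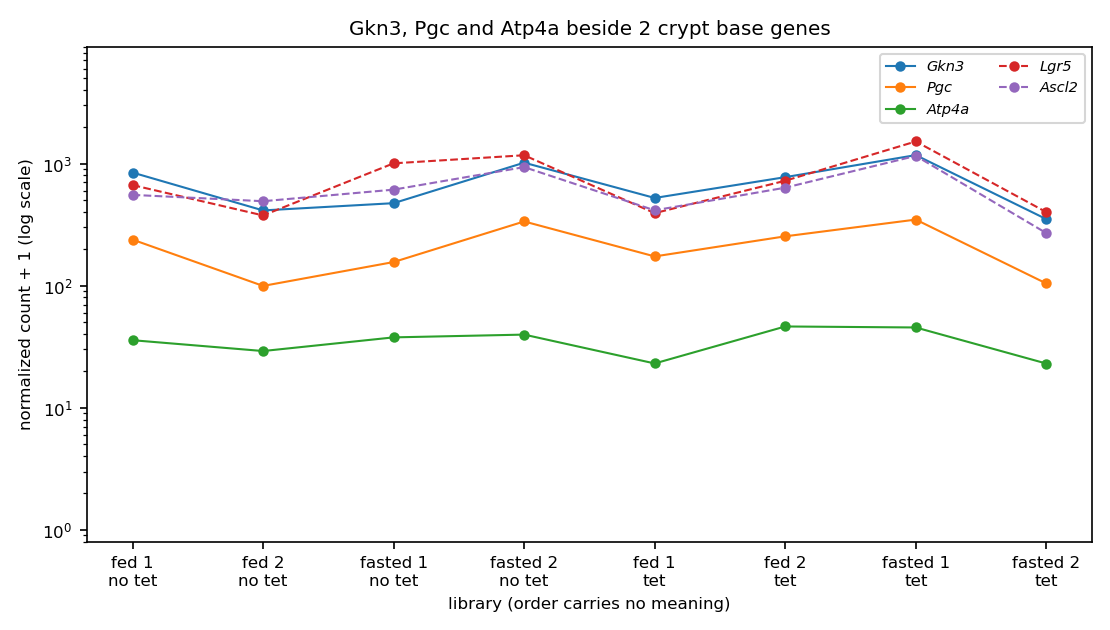
Normalized count plus 1 (log scale) of Gkn3, Pgc and Atp4a (solid) and of the crypt base genes Lgr5 and Ascl2 (dashed) in the 8 libraries; lines join the values of 1 gene and the library order carries no meaning. Gkn3 and Pgc run parallel at a ratio between 3.02 and 4.18 of raw counts, and fasted library 1 with tetracycline is the highest of both.

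For Tff2 with Muc6, 280 of 10932 genes (2.56%) had an r of at least 0.9, so their profile was shared by more genes than the others. The highest were Gm17173 (0.99), Zcwpw1 (0.98) and Cd300a (0.98), and Cd79a of B cells stood below that cut at 0.86. Cd300a encodes a receptor of white blood cells. For the pit cell genes the r of Cd79a was 0.23.

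The genes that lie between or beside the listed ones and serve intestinal goblet cells were abundant and had small changes. Tff3, beside Tff2, had log2 changes of -0.42 (SE 0.33) and 0.43 (SE 0.35) in the authors' deposited tables without and with the antibiotic. Muc2, between Muc6 and Muc5ac, had 0.38 (SE 0.30) and 0.22 (SE 0.47) in the authors' deposited tables. Neither was called, and both had the opposite sign to Muc5ac with tetracycline. Of 10 goblet cell genes, 1 was called lower without and 0 with the antibiotic in the authors' deposited tables, with medians of -0.27 and 0.34.

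Markers of the upper gut were set beside the pit cell genes. Of 9 genes of proximal small intestine, 1 was called higher and 1 lower in fasted crypts without tetracycline, and 1 lower with it, in the authors' deposited tables. The gene called higher was Fabp1, at 1.08 (SE 0.27, adjusted p = 0.00656) without and 0.98 (SE 0.38, adjusted p = 0.553) with tetracycline in the authors' deposited tables. The gene called lower in both was Slc40a1, the iron exporter of duodenal enterocytes, at -1.28 (SE 0.34, adjusted p = 0.0113) and -1.91 (SE 0.49, adjusted p = 0.0201) in the authors' deposited tables. Pdx1, a transcription factor of antrum, duodenum and pancreas, stood at -0.70 (adjusted p = 0.350) and -1.46 (adjusted p = 0.0605) in the authors' deposited tables. The medians of the 9 were -0.46 and -0.72, with 8 of 9 lower in fasted crypts with tetracycline. Of 6 genes of the ileum, the distal small intestine, 1 was called lower in the authors' deposited table without tetracycline, Fabp6 at -5.13 (SE 0.34, adjusted p = 1.46e-48), and 0 were called in the other. With tetracycline 5 of these 6 were higher in fasted crypts, with a median of 0.45. For the sixth, Fabp6, the authors' deposited table gives -2.21 (SE 0.75, adjusted p = 0.268) there. How far along the gut each preparation reached is not given, and its part in the values of the gastric genes was not tested.

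Marker genes of other cells and tissues that a preparation could hold were measured in the same libraries. For 13 of 14 pancreatic acinar genes, the sums were 777 and 830 in the fasted and 555 and 2634 in the fed libraries without tetracycline, and 1012 and 915 against 1219 and 1206 with it. The other gene is Clps, colipase, whose mean is over 1000 so that its counts were not recovered. For Clps the authors' deposited tables give log2 changes of 0.66 (SE 0.26, adjusted p = 0.225) without and 0.80 (SE 0.69, adjusted p = 0.9999) with tetracycline, toward fasted crypts. Cela1 and Amy2a5 made up much of these sums. The other 11 summed to 238 and 238 against 138 and 1208 without tetracycline, and to 236 and 332 against 125 and 677 with it. Fed library 2 was the highest for 13 of the 13 genes without and for 10 of 13 with tetracycline, and the same library was the highest for Gkn1, Gkn2 and Tff1 in both tables. Of the 14, 0 were called in either of the authors' deposited tables. For 9 of 12 genes of keratinized squamous epithelium, the sums were 184 and 151 against 545 and 509 without tetracycline, and 186 and 157 against 380 and 279 with it. Sprr1a alone made up the fed excess, and the other 8 summed to 89.0 and 102 against 101 and 107 without and to 145 and 133 against 109 and 115 with tetracycline. Krt13, a keratin of that epithelium, was at 0 in 6 of the 8 libraries. Krt15 and Sbsn of the same list had 48.4 to 86.3 and 13.1 to 38.7 normalized counts over the 8. Of 3 tested genes of that list, 1 was called lower in each of the authors' deposited tables. The sums of 8 stromal genes were 254 and 477 against 648 and 1566 without tetracycline, and 715 and 288 against 1345 and 669.8 with it. Of the 8, the authors' deposited tables call 3 lower without and 0 with the antibiotic. The part of these tissues in the gastric values was not tested.

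The fasting changes in both tables were compared gene by gene by subtracting the change without tetracycline from that with it, in a Wald test over 17571 genes with Benjamini-Hochberg adjustment. Of all genes 0.0228% passed, and 0 of the 10 gastric genes did. The difference was -8.87 (SE 2.54, adjusted p = 0.647) for Muc5ac, -6.13 (SE 3.64) for Gkn1, -5.86 (SE 4.51) for Gkn2, -5.76 (SE 3.20) for Tff1 and -1.78 (SE 0.63) for Ctse. All of the 10 except Muc5ac had an adjusted p of 0.99997. At an unadjusted p of 0.05, which 1.05% of all genes reached, Muc5ac and Ctse passed. The neck and gland genes had differences from -1.06 (SE 2.44) for Tff2 to -0.01 (SE 0.77) for Gkn3. Without fasted library 2 of the table without tetracycline, and with pseudocount 1, the differences were -3.74 for Muc5ac, -0.82 for Gkn1, 1.10 for Gkn2, -0.21 for Tff1 and -1.65 for Ctse. Those of Tff2 and Muc6 became 1.66 and 2.77. The differences of Gkn1, Gkn2 and Tff1 thus rested on that library, and that of Ctse did not. That a gene passed in the table with tetracycline and not in the other is therefore not shown to be a difference between them.

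Levels were set side by side across the tables, which were scaled separately, as log2 ratios with pseudocount 1 of group means, centred on the median of all genes. No test was made. In fed crypts the level with tetracycline was above that without by 6.02 for Muc5ac, 3.66 for Gkn2, 3.55 for Gkn1, 3.52 for Tff1, 1.49 for Ctse, 1.23 for Tff2 and 1.20 for Muc6. The differences were 0.27 for Pgc, 0.02 for Atp4a and -0.02 for Gkn3. Thus 7 of the 10 were higher by at least 1, as were 9.04% of 22902 genes, and 6 or 7 were when a library was left out. Muc6 fell to 0.0069 without fed library 1 of the table with tetracycline, and Tff2 to 0.77 without fed library 1 of the other table. Without that last library Pgc rose to 1.04 and took the place of Tff2 among the 7. Without fed library 2 of the table without tetracycline, Pgc stood at -0.22. On the same scale 6 of the 9 proximal genes were higher in fed crypts with tetracycline, with a median of 0.11, led by Cybrd1, a duodenal iron reductase, at 1.63. Slc40a1 stood at 0.63 and Pdx1 at 0.45. The 3 lower ones in the same fed crypts were Lct at -0.45, Cyp2c66 at -0.36 and Fabp1 at -0.15. All 6 ileal genes were lower there, with a median of -0.94, and Slc10a2, the bile acid transporter of the ileum, was lowest at -2.28. Between the fasted groups 2 of the 9 proximal and 2 of the 6 ileal genes were higher with tetracycline, with medians of -0.17 and -0.25. The part of these gut regions in the levels of the gastric genes was not tested.

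In fasted crypts the same comparison ran the other way for 4 pit cell genes, at -2.54 for Muc5ac, -2.48 for Gkn1, -2.18 for Tff1 and -2.15 for Gkn2. The other 6 lay between -0.28 for Ctse and 0.99 for Muc6. Of the 10, 0 were higher by at least 1, where 3.85% of 22902 genes were, but 6 were without fasted library 2 of the table without tetracycline. In that case Tff2 stood at 2.89 and Muc6 at 3.97, while without fasted library 1 of the other table they stood at -4.09 and -1.38. The fasted levels of the 4 without tetracycline rest on fasted library 2, which held 99.3% of the fasted normalized counts of Gkn1, all of those of Gkn2, 99.5% of Tff1 and 99.1% of Muc5ac. Without that library the direction turned in all 4, to 2.33 for Muc5ac, 2.74 for Gkn1, 3.32 for Tff1 and 4.77 for Gkn2, set against 0 or 1 raw count. In fed crypts both libraries with tetracycline lay above both without it for the 4, so leaving out 1 could not turn their direction. Their values then ranged from 2.29 to 7.12.

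Per kilobase of merged exon, the order of the genes differed between groups. In fed crypts with tetracycline the mean normalized counts per kilobase were 2429 for Gkn2, 2277 for Tff1, 1004 for Gkn1 and 958 for Tff2, and each of these neighbours overlapped the next. Below them came Gkn3 at 756, Ctse at 283 and Pgc at 153, which were apart from their neighbours in the order, and then Muc5ac at 53.6, Muc6 at 13.9 and Atp4a at 8.95, which overlapped. Only neighbours were compared: the libraries of Gkn3, at 609 and 902, lay between those of Gkn1, at 427 and 1582. In the other 3 groups Gkn3 was first, at 733 in fed crypts without tetracycline, 869 in fasted crypts without it and 888 in fasted crypts with it. It was apart from the next gene, Pgc at 176 and at 162, in both fasted groups, and overlapped the next, Tff2 at 389, in fed crypts without tetracycline. Muc5ac was last in fed crypts without tetracycline, at 0.70, and in fasted crypts with it, at 0.84.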

How the data were processed

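RNA-seq of crypt preparations was analysed from 2 tables of the authors' own fasting comparisons, without and with tetracycline, matched to the groups by the library names in the labels. Per the submitters' processing notes, Salmon, DESeq2 and build mm10 were used. Their versions and settings are not given in the sources used here. The columns are DESeq2's, per the file headers. The deposited mean is a signal: counts were scaled by size factors and averaged over a table's libraries. Fold changes and standard errors were deposited as log2 values, and the authors' Wald statistic is a score, their quotient. The deposited p-values carry a Benjamini-Hochberg adjustment. There were 0 further per-sample columns left unused.

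Because normalized counts are whole numbers times a fixed step per library, counts of 4 libraries a table were recovered for genes with a mean under 1000: 17838 of 17912 genes (99.6%) without and all 18320 (100.0%) with tetracycline gave a single solution in whole counts, which Salmon estimates and DESeq2 rounds. The deposited fold changes served to find the steps of either side, and the counts were then solved from the means alone. The deposited fold changes differed from the recovered ones by a median of 0.0027 and 0.012 log2. The sums of deposited means were 65863261 and 65327199 normalized counts per library. A floor of 3 counts was 2.36 to 4.13 normalized counts, and statements on low counts cover counting error only. No count model was run on the libraries, which serve as single values. The recovery and the difference test were tested on simulated data.

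Of the versioned identifiers, 99.3% and 99.2% matched GENCODE M21 without their version. That release gave positions, exon lengths and missing symbols, and RefSeq GRCm38.p6 the promoters, so promoter and gene starts may differ. The difference of the changes was tested per gene by a two-sided Wald test from the deposited changes and standard errors. All 10 genes are named. In other lists up to 3 were to be named by absolute change. Cldn18, Anxa10, Cblif, Pga5, Slc40a1, Pdx1, Cybrd1, Fabp1, Lct, Cyp2c66, Slc10a2, Fabp6, Tff3, Muc2, Lgr5, Ascl2, Olfm4 and the markers of other cell types were named after their values were seen. The genes and lists were chosen with earlier results of these data known. The lymphocyte list as a whole is not reported here. Alternatives were other pseudocounts, centring, filters, thresholds and leaving out each library. Python 3.11.15, pandas 2.3.3, numpy 2.4.6, scipy 1.17.1 and matplotlib 3.10.9 were used.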

Additional observations from a re-analysis of the deposited data

How the results depend on the processing

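Over 54 alternatives for the summary values, 45 left the value within its spread or within 1.5 times its count. Another 9 moved it and 0 reversed the sign of a called value. Over 160 for single genes the numbers were 144, 16 and 0. Only called values could count as reversed, and of the single genes only Muc5ac and Ctse with tetracycline were called. A turned sign of an uncalled value could count as within the spread, as for Gkn1 without tetracycline, from -0.54 to 1.99 without fed library 2. A higher filter on the mean could not change the value of a single gene. The median log2 change of the 10 genes without tetracycline (-0.22) ranged from -3.00 (without fasted library 2) to 0.40 (without fasted library 1) when libraries were left out, and the median with tetracycline (-2.46) from -4.25 (without fasted library 1) to -1.80 (without fasted library 2). The median difference of the changes (-1.42) ranged from -3.66, without fasted library 1 of the table with tetracycline, to -0.0038, without fasted library 2 of the other table. The median fasted level with against without tetracycline (-0.26) ranged from -1.27 to 2.53 when libraries were left out, an alternative added after seeing the data, the last without fasted library 2 of the table without tetracycline. At an adjusted p of 0.01 the genes called were 246 in place of 411 without and 68 in place of 108 with tetracycline. A split chosen after seeing the data gave a median with tetracycline of -6.27 for Gkn1, Gkn2, Tff1 and Muc5ac and of -0.55 for the other 6. The cause of the spread between libraries was not tested. Without fasted library 1, Gkn3 with tetracycline went from 0.23 to -0.89 and Tff2 from -2.98 to -7.22. No paired analysis was possible because the groups share only replicate number 1 and the tables carry no sample columns. With 2 libraries a side, and 0 or 1 raw count of Gkn1, Gkn2 and Tff1 in fasted library 1 of both tables, the size of their changes is poorly set.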
